A study of Mus musculus with 23 samples.

Results

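The xenobiotic cytochrome P450 genes and the genes that report activity of the aryl hydrocarbon receptor (AHR) were examined in mucosa of the proximal small intestine. The 10 genes, chosen by name, were Cyp3a11, Cyp3a13, Cyp3a25, Cyp2b10, Cyp2c65, Cyp2c66, Cyp2d26, Cyp4f14, Cyp1a1 and Tiparp. All 10 were found among the 55416 genes counted. RNA-seq libraries came from scrapings of this gut region in C57BL/6JRccHsd mice labelled female, weaned at 21 days of age, fed 1 of 2 diets for 3 weeks and sampled at 42 days. The galactose group, GAL42 (n = 12), drew 16% of dietary energy from galactose and 16% from glucose, and the glucose group, GLU42 (n = 11), drew 32% from glucose. The labels describe the diets as otherwise the same.

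Cytochrome P450 enzymes are heme proteins of the endoplasmic reticulum that oxidise drugs, plant compounds, steroids and fatty acids, and in the enterocyte they form a first metabolic barrier to what is eaten. The nuclear receptors PXR (Nr1i2) and CAR (Nr1i3) pair with the retinoid X receptor on DNA and turn on genes of the Cyp3a, Cyp2b and Cyp2c subfamilies when foreign compounds or bile acids are present. AHR binds flat aromatic ligands such as plant indoles, pairs with ARNT, and turns on Cyp1a1 and Tiparp, whose product is an ADP-ribosyltransferase that restrains AHR. Cyp3a11, Cyp3a13, Cyp3a25, Cyp2b10, Cyp2c65 and Cyp2c66 were therefore grouped as PXR/CAR-type and Cyp1a1 and Tiparp as AHR-type. Cyp2d26, a member of the 2D subfamily, and Cyp4f14, a fatty acid omega-hydroxylase that acts on leukotriene B4, were put in neither group.

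The promoter sequences of the member that answers PXR most typically and of the classical AHR target show motif letters tied to each receptor. For AHR these are only the core of its element. Sequences are RefSeq windows from 250 bases before to 50 bases after the gene start on GRCm38.p6, which held an entry for all 10 genes. In Cyp3a11 (chr5:145879805-145880104, minus strand) the capitals mark a DR4 arrangement, written AGNTCANNNNAGNTCA. In Cyp1a1 (chr9:57697363-57697662, plus strand) they mark GCGTG, the core of the element that AHR and ARNT bind.
Cyp3a11: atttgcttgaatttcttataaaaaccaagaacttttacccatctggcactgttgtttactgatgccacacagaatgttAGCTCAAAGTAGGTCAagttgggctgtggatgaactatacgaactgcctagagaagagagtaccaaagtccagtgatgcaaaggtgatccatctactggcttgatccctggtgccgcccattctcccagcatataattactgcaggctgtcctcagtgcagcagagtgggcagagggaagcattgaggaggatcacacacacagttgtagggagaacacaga
Cyp1a1: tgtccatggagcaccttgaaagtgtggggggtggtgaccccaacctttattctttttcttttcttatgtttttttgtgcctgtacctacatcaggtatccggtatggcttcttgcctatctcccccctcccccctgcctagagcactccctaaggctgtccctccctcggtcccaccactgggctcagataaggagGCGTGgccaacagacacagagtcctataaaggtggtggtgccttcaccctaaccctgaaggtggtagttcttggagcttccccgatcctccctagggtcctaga
Both strands were searched. The DR4 match in Cyp3a11 began 172 bases before the start, and such a match occurred in 0.125% of 32851 promoter windows. Each of its arms is itself a match to the half-site AGNTCA, which 46.6% of windows held and which occurred 3 times in Cyp3a11, 4 times in Cyp3a25 and once in Cyp3a13. The DR3 spacing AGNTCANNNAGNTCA, in 0.07% of windows, and the ER6 arrangement TGANCTNNNNNNAGNTCA, in 0.0304%, were in none of the 10. The GCGTG in Cyp1a1 began 54 bases before the start, and 32.4% of windows held at least 1 such core. A longer form of the AHR element, TNGCGTG, was in 5.07% of windows and in none of the 10, Cyp1a1 included. Tiparp held 1, Cyp4f14 held 1 and Cyp2b10 held 2, so this core alone did not separate the types.

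Cyp2c65 and Cyp2c66 are neighbouring paralogs on chromosome 19, and their promoter windows show how alike they are. In the window of Cyp2c65 (chr19:39060756-39061055, plus strand) and that of Cyp2c66 (chr19:39113648-39113947, plus strand) the capitals mark bases inside the shared stretch that differ from, or have no partner in, the other gene.
Cyp2c65: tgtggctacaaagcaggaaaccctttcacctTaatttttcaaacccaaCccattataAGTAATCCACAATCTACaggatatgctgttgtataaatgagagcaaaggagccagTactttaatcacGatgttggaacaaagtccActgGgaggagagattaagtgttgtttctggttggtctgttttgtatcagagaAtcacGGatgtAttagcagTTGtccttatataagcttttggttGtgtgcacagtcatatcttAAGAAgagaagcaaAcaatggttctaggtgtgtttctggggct
Cyp2c66: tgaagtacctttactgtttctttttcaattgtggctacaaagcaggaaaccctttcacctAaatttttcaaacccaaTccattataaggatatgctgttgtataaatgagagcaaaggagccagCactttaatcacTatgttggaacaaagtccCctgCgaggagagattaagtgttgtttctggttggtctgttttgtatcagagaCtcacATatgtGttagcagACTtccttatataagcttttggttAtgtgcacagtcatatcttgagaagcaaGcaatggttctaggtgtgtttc
The windows were identical at 94.5% of 271 aligned bases. In the transcripts, 20.6% of the 50-base words of Cyp2c65 and 20.4% of those of Cyp2c66 also occurred in another gene, for Cyp2c66 in Cyp2c65 alone. The share was 26.8% for Cyp3a25, shared with Cyp3a59 and Cyp3a57, while Cyp3a11 and Cyp3a13 shared no such word. It was 10.5% for Cyp2d26, 9.69% for Cyp2b10, 4.23% for Tiparp, 3.55% for Cyp1a1 and 2.72% for Cyp4f14. Reads that align equally well to paralogs may be missing from the counts of Cyp2c65, Cyp2c66, Cyp3a25, Cyp2d26 and Cyp2b10, so their levels are uncertain.

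Libraries held 15382583 to 17174721 counts in genes. The 8 enterocyte markers were all expressed, with summed levels of 55248 to 78233 CPM (the read count divided by the TMM-scaled library size, in the usual unit) in GAL42 and 51191 to 78020 CPM in GLU42. Liver, another organ rich in P450s, left little trace. Its 6 markers summed to 0.629 to 2.26 CPM in GAL42 and 0.523 to 3.53 CPM in GLU42, and Fgb had no count in any library. Pancreatic acinar markers reached 466.5 CPM in GAL42 replicate 2 against a GLU42 maximum of 1.56 CPM. GAL42 replicate 12, labelled female, held 225 counts of 4 Y-linked genes, where every other library had at most 1, and 4 counts of Xist, against a median of 1518 in the others. Without replicate 12 none of the genes below was called, and Cyp3a11 stood at a log2 difference of -0.10, Cyp2b10 at -0.30 and Cyp4f14 at 0.20 (GAL42 minus GLU42).

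The P450 transcripts were abundant and Cyp1a1 was nearly absent. Per kilobase of the longest transcript, Cyp4f14 had the highest level, at 959.6 ± 135 CPM per kb in GAL42 and 842 ± 58.1 in GLU42 (SD). Next came Cyp2d26 (663 CPM per kb in GAL42 and 635 in GLU42), Cyp3a13 (485 in GAL42 and 485 in GLU42), Cyp3a11 (309 in GAL42 and 334 in GLU42) and Cyp2b10 (244 in GAL42 and 295 in GLU42). Lower in the order stood Cyp2c65 (214 in GAL42 and 227 in GLU42), Cyp3a25 (176 in GAL42 and 201 in GLU42) and Cyp2c66 (90.6 in GAL42 and 106 in GLU42). All of them were far above Tiparp (7.19 CPM per kb in GAL42 and 6.70 in GLU42) and Cyp1a1 (0.112 in GAL42 and 0.0325 in GLU42). Neighbours in this order kept their rank in 21 or more of 23 libraries, except Cyp3a11 over Cyp2b10 (17 libraries, median ratio 1.17) and Cyp2b10 over Cyp2c65 (15 libraries, median ratio 1.16). The order of those neighbours thus varied between animals, and their difference in level was not tested. The 9 P450 members made up 72.2 ± 1.63% of the summed CPM of all 76 P450 genes of families 1 to 4 in GAL42 and 70.8 ± 2.60% in GLU42 (SD). Together they took 0.695 ± 0.0911% of all counts in genes in GAL42 and 0.691 ± 0.130% in GLU42.

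**Figure D1:**
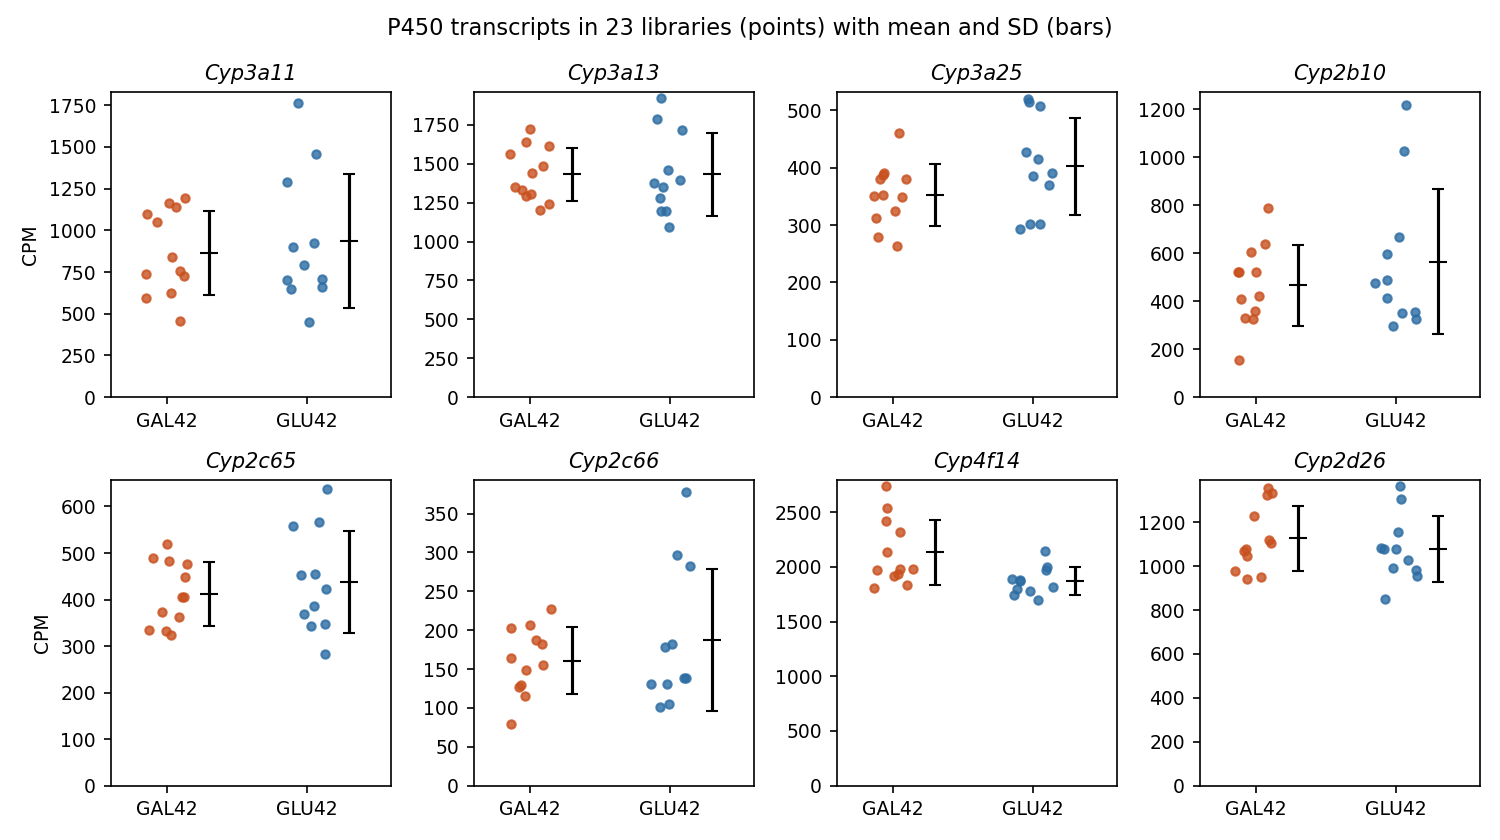
Level of the 8 abundant P450 genes in each library, in CPM scaled by TMM on a linear axis from 0, with points for libraries and bars for the mean and SD, GAL42 (n = 12) left and GLU42 (n = 11) right. The diet groups overlap in every panel, and the highest Cyp3a11, Cyp2b10 and Cyp2c66 values are GLU42 libraries.

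The diet comparison asks whether galactose in place of part of the dietary glucose goes with another level of these transcripts. None of the 9 members with enough counts passed edgeR's quasi-likelihood test (adjusted p under 0.05), and the test called 0% of all 13405 genes. At an unadjusted p under 0.05 there was 1 member, Cyp4f14, higher in GAL42, where 14.4% of all genes met that level in either direction and 8.63% were higher. None of the 9 was called by DESeq2 (1.84% of the 7168 genes left by its independent filtering, and 0.492% of all 13405 without that filtering, a setting added after the first count was seen), by limma-voom (0%), by limma-voom with sample quality weights (1.25%), or by edgeR without GAL42 replicate 7, the single library whose removal gave calls (1.64% of 13338 genes). The results are from bulk tissue, where fewer cells of a type and less RNA per cell cannot be told apart.

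Cyp3a11, the chief PXR-inducible P450 of the mouse, had 455 CPM in the lowest, 799 in the median and 1193 in the highest GAL42 library, against 448, 795 and 1763 CPM in GLU42. The GAL42 range lay inside that of GLU42, and 3 GLU42 libraries lay above every GAL42 library. The means were 864.8 ± 253 CPM in GAL42 and 935.8 ± 401 CPM in GLU42 (SD), a log2 difference (GAL42 minus GLU42) of -0.11 ± 0.19 (SE; edgeR adjusted p = 0.824). Cyp2b10, the classical CAR target, had 155, 471 and 789 CPM in GAL42 and 296, 476 and 1219 CPM in GLU42. Its lowest library was in GAL42 and its highest in GLU42, with nearly equal medians. The log2 difference was -0.28 ± 0.24 (edgeR adjusted p = 0.617). The intervals of 2 SE were wide, from -0.50 to 0.27 for Cyp3a11 and from -0.75 to 0.20 for Cyp2b10.

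Cyp3a25, a further Cyp3a enzyme, had 264, 351 and 461 CPM in GAL42 and 293, 392 and 519 CPM in GLU42. It lay above the GLU42 median in 1 of 12 GAL42 libraries, though the ranges overlapped. Its log2 difference of -0.19 ± 0.10 had the smallest p among the PXR/CAR-type genes (0.0757, edgeR adjusted p = 0.398). The interval of 2 SE ran from -0.40 to 0.02. Cyp3a13, the Cyp3a gene with the highest level here, had 1204, 1397 and 1726 CPM in GAL42 and 1094, 1375 and 1920 CPM in GLU42. Its GAL42 range lay inside that of GLU42, and the log2 difference was -0.00 ± 0.09, with an interval of 2 SE from -0.18 to 0.18.

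Cyp2c65 and Cyp2c66 encode P450s of the 2C subfamily, which oxidises drugs and fatty acids. Cyp2c65 had 324, 405 and 518 CPM in GAL42 and 284, 422 and 638 CPM in GLU42, and Cyp2c66 had 79.6, 160 and 227 CPM in GAL42 against 101, 138 and 378 CPM in GLU42. The GAL42 libraries of Cyp2c65 all lay inside the GLU42 range, and for Cyp2c66 all but the lowest did. The log2 differences were -0.09 ± 0.12 and -0.22 ± 0.20 (SE; edgeR adjusted p = 0.766 for Cyp2c65 and 0.640 for Cyp2c66). Their intervals of 2 SE ran from -0.32 to 0.14 for Cyp2c65 and from -0.63 to 0.18 for Cyp2c66. All 6 PXR/CAR-type estimates were thus at or below 0, with a median log2 difference of -0.15 against -0.00 over all tested genes, and none passed the test. These genes varied together between animals, as given below, so the 6 estimates are not separate observations. The sign was not stable for Cyp3a11, at 0.02 without GLU42 replicate 7, nor for Cyp3a13, at 0.05 without GLU42 replicate 3.

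Of the other library properties compared, the slope on transcript length differed between diets, and gut position did not pass its test. The slope of a library's expression on transcript length (per log2 of length) was -0.0289 ± 0.0553 in GAL42 and 0.0315 ± 0.0450 in GLU42 (SD; two-sided permutation p = 0.0104). With this slope as a covariate the differences stood at -0.13 for Cyp2b10, -0.05 for Cyp2c66, -0.08 for Cyp3a25, -0.03 for Cyp2c65, 0.00 for Cyp3a11 and 0.08 for Cyp3a13. They were 0.17 for Tiparp, 0.18 for Cyp4f14 and 0.03 for Cyp2d26, and none of the 9 passed. T cell markers summed to 89.1 to 233 CPM in GAL42 (median 134) and 31.9 to 176 CPM in GLU42 (median 97.4), with all 6 estimates higher in GAL42, 4 of them at an unadjusted p under 0.05, where 8.63% of all genes were higher at that level, and none called by edgeR. All 3 tested B and plasma cell markers also had higher estimates (median log2 difference 1.22, 1 at that level), the smallest at 0.05 ± 0.22 (SE). Their list summed to 49.3 to 233 CPM in GAL42 (median 92.8) and 50.4 to 150 CPM in GLU42 (median 97.3), so the median sum was not higher in GAL42. Of all 13405 tested genes, 6773 had lower estimates in GAL42, and 5.72% were lower at that level. Crypt markers were lower in 6 of 6 (median -0.27, 2 at that level) and summed to 84.8 to 262 CPM in GAL42 and 118 to 317 CPM in GLU42. Smooth muscle markers were lower in 6 of 6 (median -0.23, none at that level) and summed to 37.6 to 106 CPM in GAL42 and 35.3 to 156 CPM in GLU42. Villus markers were lower in 4 of 6 (median -0.19, 2 at that level) and summed to 28695 to 44619 CPM in GAL42 and 28199 to 48284 CPM in GLU42. edgeR called none of these markers, and the part of these cell types in the P450 values was not tested. Gut position, scored from proximal and distal markers, was 2.28 ± 0.300 in GAL42 and 2.23 ± 0.449 in GLU42 (mean log2 CPM difference; permutation p = 0.723), and with it as a covariate Cyp3a11 stood at -0.10 and Cyp2b10 at -0.27.

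The spread between animals differed widely among the genes. For Cyp2b10 the highest library had 7.85 times the CPM of the lowest (4.12 times within GLU42, and also without GAL42 replicate 5, which was the lowest). The ratio was 4.74 for Cyp2c66 and 3.93 for Cyp3a11, against 1.61 for Cyp4f14 and for Cyp2d26. The biological coefficient of variation (BCV, edgeR's estimate of the variation between animals beyond counting) was 39.0% for Cyp2b10, 33.5% for Cyp2c66 and 32.1% for Cyp3a11. These stood at percentiles 99.0, 98.3 and 98.1 of the 1837 tested genes of at least 100 CPM, whose median BCV was 11.9%. Cyp2c65 (19.6%), Cyp3a25 (17.6%), Cyp3a13 (15.1%) and Cyp2d26 (13.7%) varied less, and Cyp4f14 (12%) lay near the median of abundant genes.

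Within a diet, the coefficient of variation of CPM was 36.2% in GAL42 and 53.3% in GLU42 for Cyp2b10. It was 29.3% in GAL42 and 42.9% in GLU42 for Cyp3a11, and 26.8% in GAL42 and 48.6% in GLU42 for Cyp2c66. On the log2 scale the SD was smaller in GAL42 for all 6 PXR/CAR-type genes, by log2 ratios of SDs from -0.13 for Cyp2b10 to -0.60 for Cyp3a13. For Cyp4f14 it was larger in GAL42, by 1.0. None of these differences in spread passed a two-sided permutation test (unadjusted p between 0.158 and 0.910 for the 9 tested members). The 6 PXR/CAR-type genes varied together between animals, as given below, so their shared sign is not 6 separate observations. Without GLU42 replicate 3 the ratio for Cyp2b10 turned to 0.15.

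**Figure D2:**
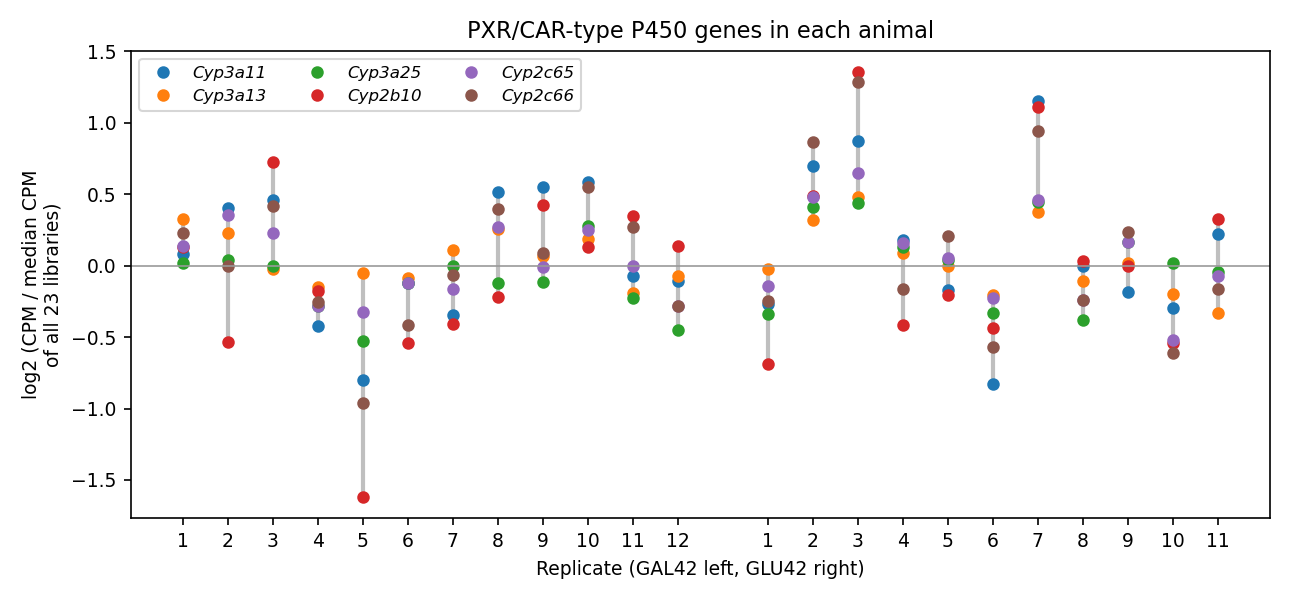
Level of the 6 PXR/CAR-type genes in each library, as log2 of CPM over the median of all 23 libraries, with 1 colour per gene, grey bars from the lowest to the highest gene, and GAL42 libraries left of GLU42. GLU42 replicates 2, 3 and 7 are high for all 6 genes, and GAL42 replicate 5 is below the median for all of them.

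The same animals were high or low for the PXR/CAR-type genes. GLU42 replicates 2, 3 and 7 held ranks within the first 4 of 23 libraries for all 6 genes, for example with 667, 1219 and 1027 CPM of Cyp2b10 in that order. GAL42 replicate 5 and GLU42 replicate 10 were among the 5 lowest libraries for 5 of the 6 genes. GAL42 replicate 5 had the lowest Cyp2b10 level, at 155 CPM.

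With the diet means removed, 14 of the 45 pairs of members were correlated over the 23 libraries, by an adjusted permutation p under 0.05 for both Pearson's r and Spearman's rho, and all 14 were positive. Of the 15 pairs within the PXR/CAR type, 13 passed (median r 0.77). The share of passing pairs among all genes was not computed, so these counts have no background. Genes outside this type also varied like Cyp3a11, among them H2-Q2 and Necap1, each at rho = 0.80, near the top of 9282 ranked genes. The highest was Cyp2c65 with Cyp2c66, at r = 0.90 and rho = 0.88 (permutation p = 1e-05 for each, the smallest that 100000 resamples can give, adjusted p = 0.000169 and 0.000225). It was 0.86 without the 2 libraries farthest from the median, 0.79 within GAL42 and 0.95 within GLU42. Whether reads shared by these paralogs raise the value was not tested.

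Cyp3a11 and Cyp2b10, which share no subfamily, were correlated at r = 0.77 and rho = 0.74 (permutation p = 2e-05 and 7e-05, adjusted p = 0.000169 and 0.000350). The value was 0.66 without the 2 farthest libraries, 0.65 within GAL42 and 0.87 within GLU42. The pairs that did not pass were Cyp3a13 with Cyp2b10 (r = 0.43, rho = 0.34, permutation p = 0.0478 and 0.130, adjusted p = 0.102 and 0.234) and Cyp3a25 with Cyp2b10 (r = 0.60, rho = 0.50, permutation p = 0.00399 and 0.0203, adjusted p = 0.0112 and 0.0609). Without GLU42 replicates 2, 3 and 7, a set chosen after their values were seen, 8 pairs passed, 7 of them within the PXR/CAR type. There Cyp2c65 with Cyp2c66 was at r = 0.80, and Cyp3a11 with Cyp2b10 was at r = 0.62 and no longer passed for rho (adjusted p = 0.0919).

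**Figure D3:**
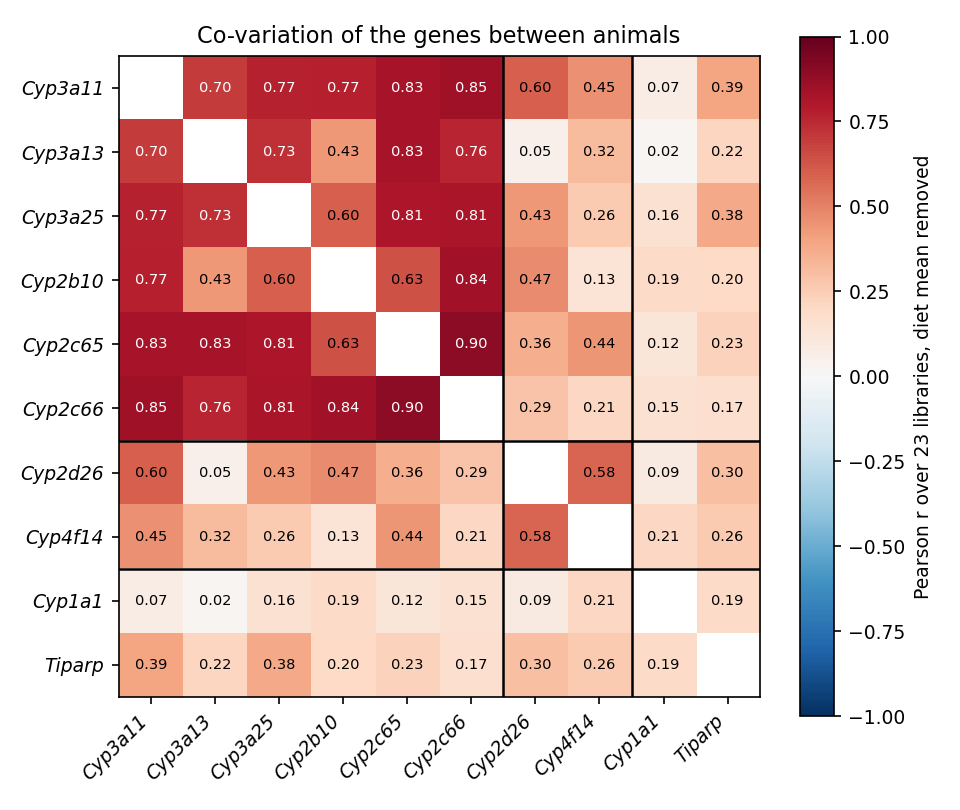
Pearson r of log2 CPM between the 10 genes over 23 libraries after removing the diet means, with black lines between the PXR/CAR-type, other and AHR-type genes. The PXR/CAR-type block holds r from 0.43 to 0.90, and the block of these genes with the AHR-type genes holds r from 0.02 to 0.39.

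None of the 12 pairs of a PXR/CAR-type with an AHR-type gene passed (r from 0.02 to 0.39). The 1 pair that passed outside the PXR/CAR type was Cyp3a11 with Cyp2d26, at r = 0.60 and rho = 0.55 (permutation p = 0.00381 and 0.00833, adjusted p = 0.0112 and 0.0268, and r = 0.56 without the 2 farthest libraries). Cyp1a1 rests on a few counts a library, so its low correlations, such as r = 0.19 with Tiparp, say little at this depth.

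A villus score moved with part of the PXR/CAR-type genes. In a further family of 70 relations, a score of villus minus crypt markers was correlated with Cyp3a25 (r = 0.68, rho = 0.69, permutation p = 0.00088 and 0.0008, adjusted p = 0.0164 and 0.0187), Cyp3a13 (r = 0.67), Cyp2c65 (r = 0.65) and Cyp3a11 (r = 0.60), the last 3 with adjusted p of at most 0.0469. Without the 2 farthest libraries r was 0.62 for Cyp3a25 and 0.47 for Cyp3a11. The score itself was 5.89 ± 0.637 in GAL42 and 5.79 ± 0.761 in GLU42 (mean log2 CPM difference, SD; permutation p = 0.730). Villus and crypt markers both had negative median differences, and shifts in the same direction cancel in this score. With it removed from each gene, 11 pairs passed, all within the PXR/CAR type (median r 0.67). Neither receptor gene passed with any of the 10 genes, with r between 0.21 and 0.52 for Nr1i2 and between -0.03 and 0.34 for Nr1i3. Ahr mRNA passed with Cyp3a13 (r = 0.72, rho = 0.74, permutation p = 0.00055 and 0.00031, adjusted p = 0.0164 and 0.0108, and r = 0.67 without the 2 farthest libraries) and Cyp3a11 (r = 0.62, adjusted p = 0.0332 and 0.0465), but not with Cyp1a1 (r = 0.27) or Tiparp (r = 0.46, adjusted p = 0.127).

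Cyp4f14 had 1809 CPM in the lowest, 1980 in the median and 2737 in the highest GAL42 library, against 1695, 1872 and 2146 CPM in GLU42. Of the 12 GAL42 libraries, 10 lay above the GLU42 median, and the GAL42 values ran from inside the GLU42 range to above it. The means were 2131 ± 300 CPM in GAL42 and 1870 ± 129 CPM in GLU42 (SD), a log2 difference of 0.19 ± 0.07 (SE; unadjusted p = 0.0110, edgeR adjusted p = 0.217). It was between 0.15 and 0.21 with any 1 library left out, 0.18 with the length slope as a covariate and 0.09 with 6 surrogate variables. Por, the reductase that passes electrons to microsomal P450s, was correlated with Cyp4f14 between animals at r = 0.72 and rho = 0.65 (permutation p = 2e-05 and 0.00026, adjusted p = 0.0014 and 0.0108, and r = 0.64 without the 2 farthest libraries).

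Cyp2d26 had 943, 1091 and 1355 CPM in GAL42 and 849, 1077 and 1364 CPM in GLU42. The ranges nearly coincided, and the log2 difference was 0.06 ± 0.08 (edgeR adjusted p = 0.752), with an interval of 2 SE from -0.10 to 0.22.

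Of the AHR-type genes, Tiparp was expressed at a low and even level and Cyp1a1 at the edge of detection. Tiparp had 25.6, 29.3 and 34.8 CPM in GAL42 and 21.9, 28.4 and 32.3 CPM in GLU42. The groups overlapped over most of their range. The log2 difference was 0.10 ± 0.06 (edgeR adjusted p = 0.475), and its BCV was 10.7%.

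Cyp1a1 had 1 read in the lowest, 5 in the median and 13 in the highest GAL42 library, against 0, 1 and 6 reads in GLU42. Every GAL42 library held at least 1 read, 5 of the 11 GLU42 libraries held none, and the groups overlapped between 1 and 6 reads. The sums were 59 reads in GAL42 and 16 in GLU42, a rate ratio of 3.45 (95% exact interval 1.96 to 6.43, counting error only). Its counts were too low for the filter of the edgeR test. As a single gene, log2 CPM (prior count 2) was 0.97 higher in GAL42 (two-sided permutation p = 0.00588, unadjusted, between 0.00191 and 0.0115 with any 1 library left out). The size varied with the prior count and was 1.72 with a prior count of 0.5 (two-sided permutation p = 0.00428, unadjusted). In the edgeR fit of all 29580 genes with any count, where 0% passed, the log2 difference was 1.69 ± 0.56 with an adjusted p of 0.278, so Cyp1a1 did not pass either. GAL42 replicate 7 held the 13 reads, and without it the GAL42 sum was 46.

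**Figure D4:**
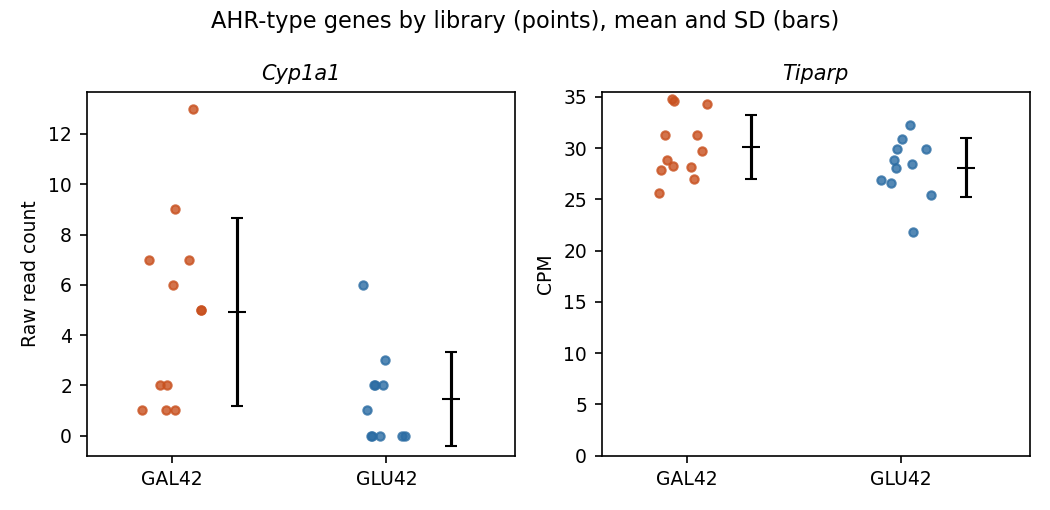
Raw read count of Cyp1a1 (left) and CPM of Tiparp (right) in each library, with points for libraries and bars for the mean and SD, GAL42 (n = 12) left of GLU42 (n = 11) in each panel. Cyp1a1 lies between 1 and 13 reads in GAL42 and between 0 and 6 reads in GLU42, and Tiparp overlaps between the diets.

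No receptor gene passed the test between diets. Of 8 genes for PXR, CAR and their partners, 5 had positive and 3 negative differences (median 0.04), and none was called. Nr1i2 had 157 ± 13.3 CPM in GAL42 and 149.9 ± 17.1 CPM in GLU42 (log2 difference 0.07 ± 0.06), and Nr1i3 had 75.8 ± 10.2 CPM in GAL42 and 72.9 ± 8.48 CPM in GLU42 (0.06 ± 0.07). Hnf4a, a nuclear receptor of enterocytes and liver that sustains many P450 genes, stood at -0.14 ± 0.06 (unadjusted p = 0.0332, edgeR adjusted p = 0.309). Nr0b2, the corepressor SHP, stood at 0.27 ± 0.14. Of 6 genes for AHR and its partners, 3 were higher and 3 lower (median -0.00). Ahr had 14.5 ± 1.88 CPM in GAL42 and 15.2 ± 2.64 CPM in GLU42 (-0.07 ± 0.09), and Ahrr, the AHR repressor and itself an AHR target, had 0.976 ± 0.537 CPM in GAL42 and 1.15 ± 0.406 CPM in GLU42 (-0.22 ± 0.26).

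Other targets of PXR and CAR had lower estimates more often than higher ones. Of 12 listed, 10 were tested (Abcb1b and Slco1a4 had too few counts), 8 lower and 2 higher in GAL42 (median -0.19), and edgeR called none. At an unadjusted p under 0.05 there were 4, all lower, where 5.72% of all genes were lower at that level. Ces2a, a carboxylesterase, had 316 ± 85.8 CPM in GAL42 and 463 ± 160 CPM in GLU42 (log2 difference -0.55 ± 0.17, edgeR adjusted p = 0.164). Gstm1, a glutathione transferase, stood at -0.61 ± 0.22, Aldh1a1, a retinal dehydrogenase, at -0.49 ± 0.17 and Abcc2, an export pump for conjugates, at -0.24 ± 0.10. Cyp2c55 had 121 ± 38 CPM in GAL42 and 159 ± 110 CPM in GLU42 (-0.39 ± 0.26). Akr1b7 (0.25 ± 0.15) and Papss2 (0.20 ± 0.16) had the positive estimates. The list was written with earlier results on these libraries known, so its counts are not independent evidence of direction.

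Of the 6 other AHR targets, 2 had enough counts. Nqo1, a quinone reductase, stood at -0.05 ± 0.13, and Ugt1a6a, a glucuronosyltransferase, at -0.17 ± 0.21. Cyp1b1 had 105 reads over all GAL42 libraries and 85 over all GLU42 libraries, Ugt1a6b had 13 in GAL42 and 3 in GLU42, Cyp1a2 had 1 in GAL42 and 0 in GLU42, and Aldh3a1 had 0 in GAL42 and 2 in GLU42. The estimates of Nqo1 and Ugt1a6a were within 1 SE of 0, and neither gene was called.

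**Figure D5:**
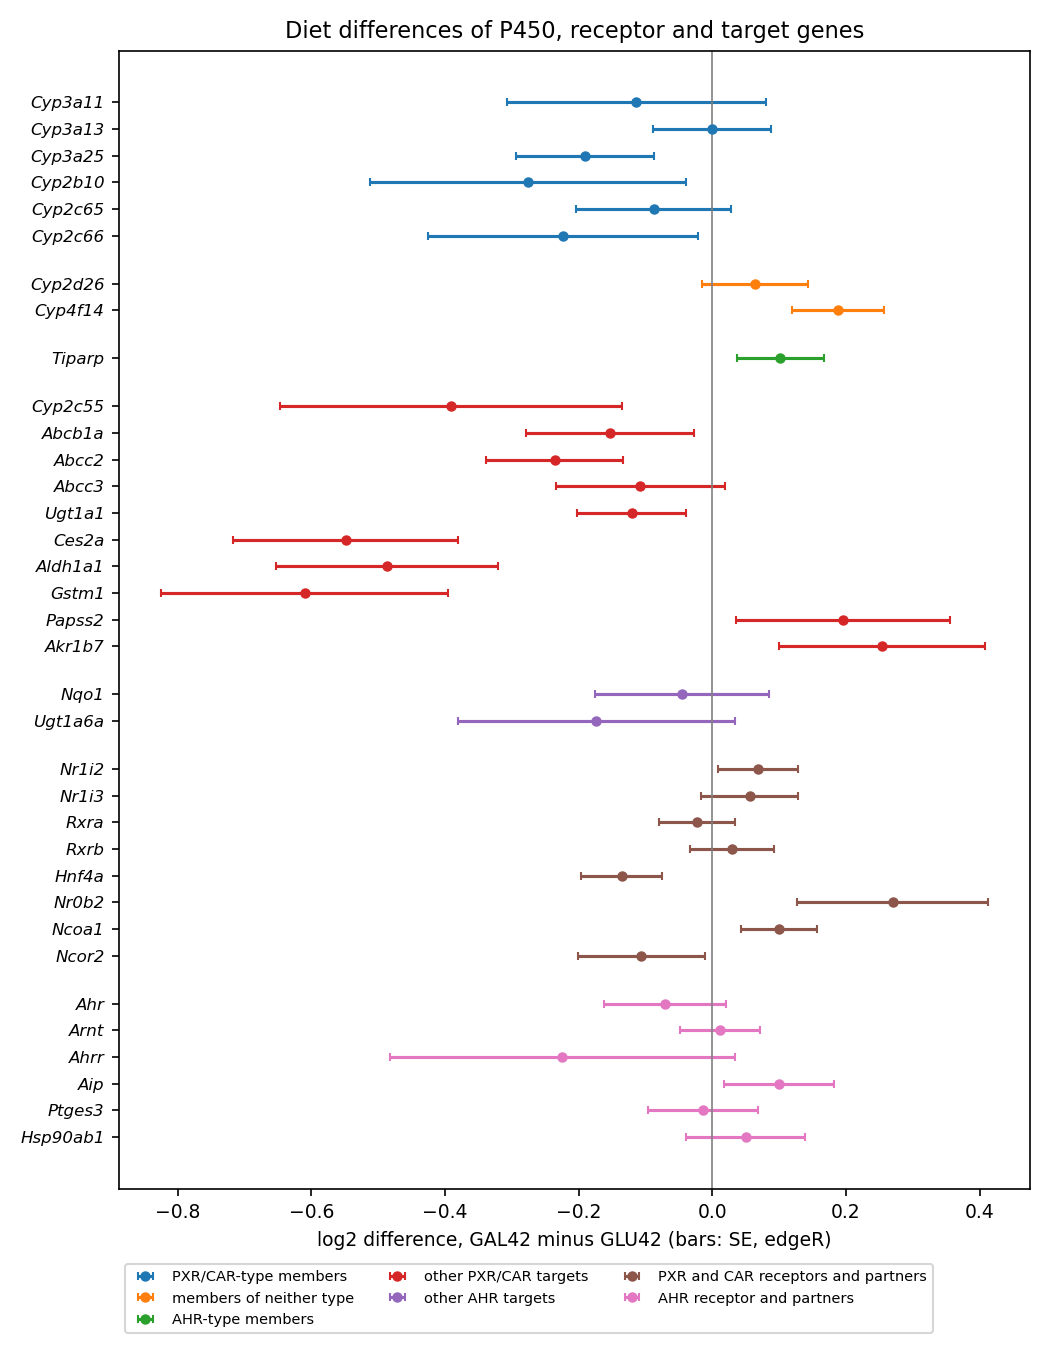
Log2 difference between the diets, GAL42 minus GLU42, with SE bars from edgeR, for the tested members and for the receptors, partners and other targets, coloured by list. Ces2a, Aldh1a1 and Gstm1 lie lowest, and most SE bars of the receptors reach or nearly reach 0.

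The genes that supply P450s with electrons and heme showed no common direction, with 7 of 12 higher and 5 lower (median 0.02) and none called. Por had 325 ± 43.4 CPM in GAL42 and 339 ± 65.5 CPM in GLU42 (-0.06 ± 0.09), and Alas1, the entry enzyme of heme synthesis, had 196 ± 26.4 CPM in GAL42 and 182 ± 31.2 CPM in GLU42 (0.11 ± 0.08).

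Of the 67 other P450 genes of families 1 to 4, 23 were tested, 10 higher and 13 lower in GAL42 (median -0.07), and none was called. Those of at least 20 CPM included Cyp4v3 (924 ± 97.1 CPM in GAL42 and 987 ± 137 CPM in GLU42), Cyp2j6 (469.9 ± 98.4 CPM in GAL42 and 494 ± 65.4 CPM in GLU42), Cyp4f16 (237 ± 43.7 CPM in GAL42 and 272 ± 34 CPM in GLU42) and Cyp4f13 (154 ± 14.6 CPM in GAL42 and 139.7 ± 13.9 CPM in GLU42). Among relatives of Cyp4f14, Cyp4f13 stood at 0.14 ± 0.06 and Cyp4f16 at -0.20 ± 0.09, and Cyp4f40 at -0.09 ± 0.05. Cyp2c29 (-0.58 ± 0.38) had the largest difference among those of at least 20 CPM, with an SD of 66.8 CPM in GLU42 around a mean of 70.9 CPM.

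Spearman's rho was taken over the 23 libraries with diet means removed, for 9282 genes of at least 5 CPM. Members, predicted genes (Gm or Rik symbols) and genes with no symbol were then left out. The remaining genes that varied most like Cyp3a11 were Cyp2c55 (rho = 0.80), H2-Q2 (0.80) and Necap1 (0.80). The member Cyp2c65 stood higher, at rho = 0.83. For Cyp1a1 the remaining genes most alike were Rasal2 (0.74), Tbc1d12 (0.66) and Wdr7 (0.64), on counts of 0 to 13 reads. These values describe the top of a ranking.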

How the data were processed

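RNA was measured in 23 mucosal scrapings, 12 GAL42 and 11 GLU42, sequenced 1 library per mouse. The authors deposited raw read counts per gene, made with STAR and HTSeq on GRCm39, per the submitters' processing notes. Which versions, annotation release and strand setting were used is not given in the sources used here. Besides genes, 5 rows that name none held 13.5% of reads and were left out. Symbols came from a supplied name table (94.0% of gene rows, 99.8% of counts). The genes and lists were chosen with earlier results of these data known. Counts were scaled by TMM, filtered with filterByExpr and tested with edgeR 4.0.16 in R 4.3.3 (quasi-likelihood F test, diet as the only term, Benjamini-Hochberg over all tested genes, threshold 0.05), after a check on simulated counts. DESeq2 1.42.0, limma 3.58.1 and sva 3.50.0 served as alternatives. Spread, correlations and single genes were tested by two-sided permutation tests (100000 resamples, within diet for correlations) on log2 CPM with a prior count of 2. The genes named are the 10 members, the listed pathway genes (other P450s of at least 20 CPM) and the 3 most like Cyp3a11 and Cyp1a1. Members, predicted genes and genes with no symbol were not eligible for these 3. A result on 1 listed gene is not reported here. Lengths came from another annotation by identifier, so no gene coordinates are given. Chi-square values per degree of freedom for the 121 pairs of libraries within a diet were 12.9 to 51.3, so none was a copy. The labels name no batch, litter or cage. The exact interval and the read floor for Cyp1a1 cover counting error only. The intervals of 2 SE come from the edgeR fit and also cover variation between animals.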

Additional observations from a re-analysis of the deposited data

Results flagged for a closer look

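GAL42 replicate 12, labelled female, held 225 counts of 4 Y-linked genes, against at most 1 in any other library. The library was kept in the diet comparison, and the Y-linked genes were not part of it. Without it the log2 difference was -0.10 for Cyp3a11, -0.30 for Cyp2b10 and 0.20 for Cyp4f14, and 0 members were called.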

How the results depend on the processing

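No member was called by edgeR, DESeq2 or limma-voom under any of the 14 other settings or with any 1 of 23 libraries left out (0 to 0). Genes called were 132 with DESeq2 and its independent filtering, 66 without that filtering, 167 with limma-voom and quality weights and 4 with 6 surrogate variables, against 0, and 0 to 219 with 1 library left out, the 219 without GAL42 replicate 7. With 1 library left out, log2 differences ranged from -0.19 to 0.020 for Cyp3a11, -0.035 to 0.045 for Cyp3a13, -0.23 to -0.15 for Cyp3a25, -0.37 to -0.10 for Cyp2b10, -0.14 to -0.02 for Cyp2c65, -0.29 to -0.07 for Cyp2c66, 0.03 to 0.10 for Cyp2d26, 0.15 to 0.21 for Cyp4f14, 0.07 to 0.12 for Tiparp and 0.86 to 1.10 for Cyp1a1. The length slope as covariate turned Cyp3a11 to 0.00021 and Cyp3a13 to 0.079, and limma-voom turned Cyp3a13 to 0.012. These are within 1 SE of 0, and the cause was not tested. Log2 ratios of SDs ranged from -0.70 to 0.15 for Cyp2b10, -0.17 to 0.17 for Cyp2d26 (0.034 with library size only) and -0.19 to 0.49 for Tiparp, and kept their sign for the other 6 genes. Correlated pairs numbered 8 without GLU42 replicates 2, 3 and 7, and 12 to 17 with 1 library left out. No paired analysis was possible because replicate numbers were given in deposit order and pair no animals. Depth limits Cyp1a1, where 3 reads correspond to 0.184 CPM. Its difference in log2 CPM was 0.97 with a prior count of 2 and 1.72 with a prior count of 0.5.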
